A study of Mus musculus with 5 samples.

Results

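Cadherins and the protocadherins that lie outside the large gene clusters were followed across the cell classes of 5 mouse synovial sarcomas. The genes were taken by symbol, as Cdh or Pcdh followed by a number (with an optional x for Pcdh), leaving out Cdh1. This gave 34 genes of the 32286 features in the count matrices, 22 with a Cdh symbol and 12 with a Pcdh symbol. All tumours arose in the hSS2 mouse model, in which the fusion gene SS18::SSX2 was switched on from the Rosa26 locus by injecting TATCre, a cell-permeable recombinase, into the limb early in life, and tumours were taken at morbidity. There was no control tissue without the fusion. The labels name 2 biphasic tumours (BP 1 and BP 2) and 1 tumour each of monophasic (MP), monophasic with biphasic (MP+BP), and poorly differentiated with monophasic (PD+MP) histology. The labels give no age, sex or strain. Both BP titles carry the same leading number, so these tumours may share an animal, and p-values measure the spread between tumours only.

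After filtering, 39559 cells remained, from libraries of 89996321 to 118649103 unique molecular identifiers (UMIs), with a median of 6340 to 8536 UMIs per kept cell, and pairs of libraries shared 15 to 33 barcodes. Cells were grouped into 29 clusters without using any cadherin-related gene, and clusters were named from fixed markers. Synovial sarcoma-like (SyS-like) cells numbered 3659, 6860, 4389, 5679 and 6415 in BP 1, BP 2, MP, MP+BP and PD+MP, the order used for all lists of 5 values. Endothelial-like cells numbered 600, 527, 609, 484 and 76. Stromal cells, the sum of pericyte-like and fibroblast-like cells, numbered 255, 176, 536, 273 and 166. A further 3862 cells stayed unnamed and entered no comparison, 10.0%, 9.21%, 12.6%, 15.8% and 1.07% of kept cells. Cluster 7, mostly from MP and MP+BP with a median of 2208 UMIs, held SyS markers but stayed unnamed for its low UMI count. Cluster 9, with a median of 2679 UMIs and 1815 of 1826 cells from PD+MP, was named SyS-like. The part of this in the PD+MP values was not tested. The fusion allele carries a fluorescent reporter. The EGFP feature stood at 31.7 to 42.4 CPM (UMIs of a gene scaled to 1e+06 UMIs of the sum) in SyS-like sums and at 0 to 5.01 CPM in the stromal, endothelial-like and macrophage-like sums. PD+MP stood apart from the other libraries. Its SyS-like cells held Uty at 135 CPM and Xist at 0.360 CPM, and those of the other 4 tumours held Uty at no more than 0.0403 CPM and Xist at 1496 to 3837 CPM.

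Cadherins are calcium-dependent adhesion proteins that bind their own kind on a neighbouring cell and hold the actin cytoskeleton through catenins at the adherens junction. Type I members such as N-cadherin (Cdh2), P-cadherin (Cdh3) and R-cadherin (Cdh4) and type II members such as Cdh6 and Cdh11 sort cells during development, while VE-cadherin (Cdh5) seals the endothelium. The nonclustered protocadherins are looser adhesion and signalling receptors, best known from neurons and the somites. Loss of E-cadherin (Cdh1) and gain of N-cadherin are widely used as a sign of mesenchymal cells, and biphasic synovial sarcoma contains both glandular and spindle cells.

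RefSeq promoter entries on GRCm38.p6 matched 22 of the 34 genes. The 250 bases before the RefSeq start are shown for 4 genes that were higher in tumour cells than in stroma (Cdh6, Cdh22, Pcdh8, Pcdh17). They are also shown for the stromal gene Pcdh18, 5′ to 3′ on the gene's strand. These starts can differ from the GENCODE gene positions given elsewhere, on which the Cdh22 and Pcdh18 windows run into the gene. CpG dinucleotides, the letters CG, are in capitals.
Cdh6, chr15:13173676-13173925, minus strand: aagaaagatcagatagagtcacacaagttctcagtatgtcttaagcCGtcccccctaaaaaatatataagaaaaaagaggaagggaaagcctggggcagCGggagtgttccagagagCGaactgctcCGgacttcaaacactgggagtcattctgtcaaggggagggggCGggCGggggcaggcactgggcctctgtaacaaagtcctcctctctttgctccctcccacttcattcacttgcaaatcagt
Cdh22, chr2:165234738-165234987, minus strand: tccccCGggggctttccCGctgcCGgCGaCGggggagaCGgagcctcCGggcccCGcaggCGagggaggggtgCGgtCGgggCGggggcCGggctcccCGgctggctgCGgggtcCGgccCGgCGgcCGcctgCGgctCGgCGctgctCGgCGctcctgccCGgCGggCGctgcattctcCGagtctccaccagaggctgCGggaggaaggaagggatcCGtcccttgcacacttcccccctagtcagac
Pcdh8, chr14:79771313-79771562, minus strand: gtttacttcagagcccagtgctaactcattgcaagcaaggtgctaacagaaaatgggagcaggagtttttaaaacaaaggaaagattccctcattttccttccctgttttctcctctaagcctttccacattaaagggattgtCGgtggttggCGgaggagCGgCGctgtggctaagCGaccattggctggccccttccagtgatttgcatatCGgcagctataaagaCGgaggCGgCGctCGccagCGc
Pcdh17, chr14:84443313-84443562, plus strand: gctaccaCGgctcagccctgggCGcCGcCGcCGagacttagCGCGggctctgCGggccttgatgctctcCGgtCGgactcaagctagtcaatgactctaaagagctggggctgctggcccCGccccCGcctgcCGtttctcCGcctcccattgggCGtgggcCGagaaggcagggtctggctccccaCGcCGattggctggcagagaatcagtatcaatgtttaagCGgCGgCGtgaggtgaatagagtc
Pcdh18, chr3:49757317-49757566, minus strand: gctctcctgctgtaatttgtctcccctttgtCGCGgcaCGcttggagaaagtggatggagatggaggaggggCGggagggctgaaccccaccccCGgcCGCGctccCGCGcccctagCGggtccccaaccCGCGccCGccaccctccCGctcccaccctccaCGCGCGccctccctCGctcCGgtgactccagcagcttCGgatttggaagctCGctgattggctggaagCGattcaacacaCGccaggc
The windows of Cdh22, Pcdh18 and Pcdh17 held 30, 23 and 21 CpGs, a number reached by 5.94%, 13.3% and 16.3% of all 32851 windows of this length. Pcdh8 held 11 and Cdh6 held 6, reached by 35.6% and 50.4% of windows, and the median window held 6. The 11 windows of genes called higher in SyS-like than in stromal cells had a median of 13 CpGs and a range of 5 to 30, and the 8 windows of genes tested without a call had a median of 6.5. On the GENCODE positions, the windows of Cdh7 and Cdh12 in the first set lie inside the gene. So do those of Cdh10, Cdh15, Cdh18 and Pcdh15 in the second. CpG number varied widely among genes with the same call against stroma, which differed in other classes, Pcdh17 being highest in endothelial-like cells. The stromal gene Pcdh18 lay within the range of the genes called higher.

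Of the 34 genes, 26 passed 5 CPM in at least 1 tumour of a class and were called in at least 1 comparison. By mean CPM over the 5 tumours, SyS-like cells were the highest of the 4 classes compared for 16 genes with a mean of 5 CPM or more. Endothelial-like cells were the highest for 5 such genes, stromal cells for 2 and macrophage-like cells for none. After each cell was thinned to 2000 UMIs, a SyS-like cell showed a mean of 2.18 to 3.16 of the 34 genes and an endothelial-like cell 2.68 to 2.96. The means were 1.16 to 1.38 in stromal cells and 0.145 to 0.201 in macrophage-like cells. Without thinning they were 5.27 to 8.86, 3.55 to 3.96, 2.01 to 3.05 and 0.406 to 0.522 in the same order of classes.

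**Figure D1:**
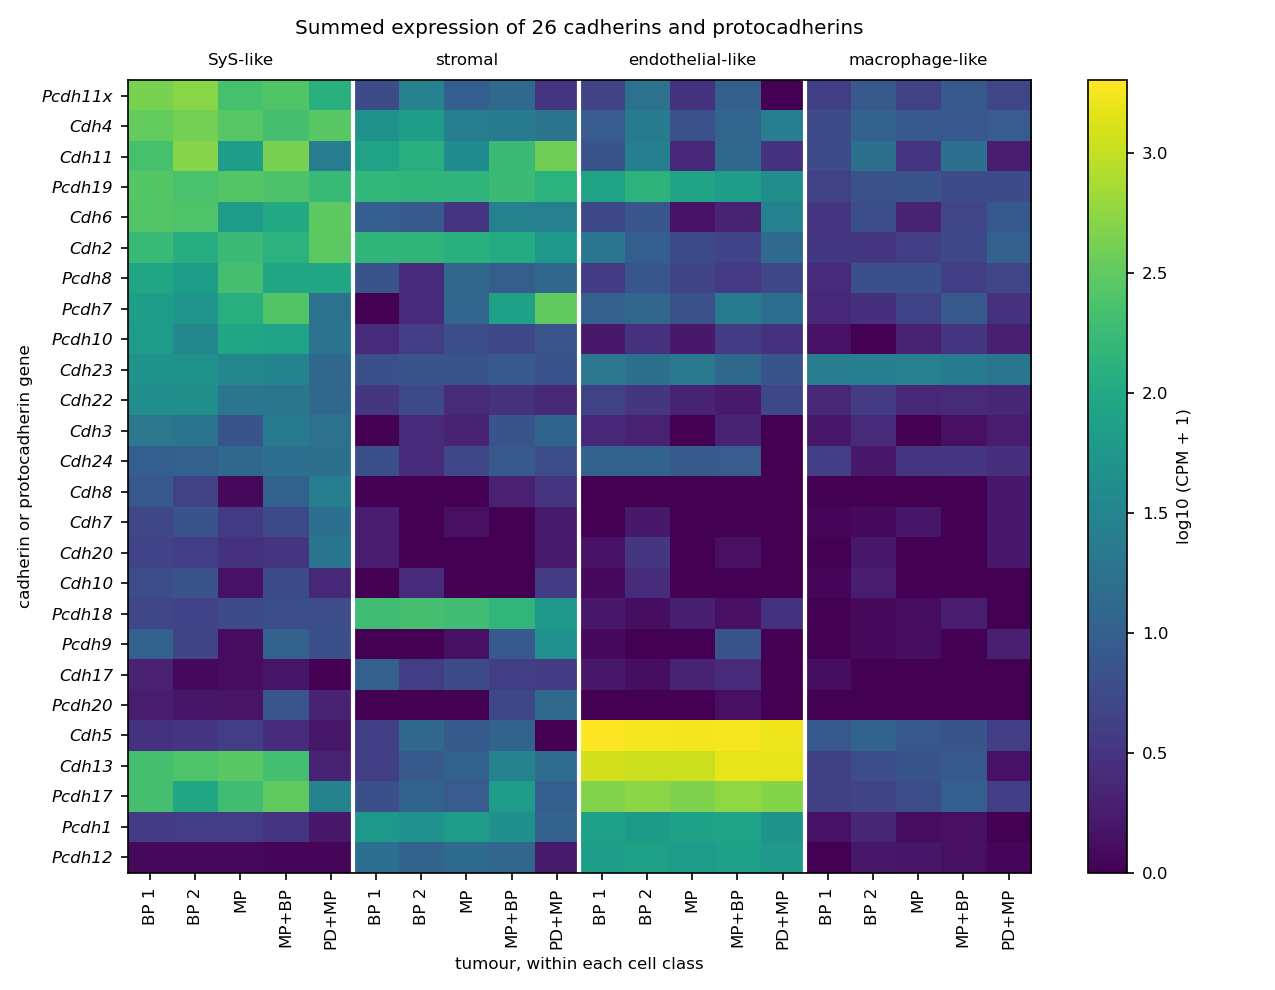
Expression of 26 cadherins and protocadherins (vertical axis) in cells summed by class and tumour (horizontal axis), coloured by log10 of CPM plus 1. SyS-like columns are high for Pcdh11x, Cdh4 and Pcdh19, endothelial-like columns for Cdh5 (1674 to 2006 CPM), Cdh13 and Pcdh17, and stromal columns for Pcdh18.

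The comparison of SyS-like with stromal cells of the same tumour asked which cadherins mark the sarcoma cells rather than the host mesenchyme. Among the 31 genes tested, 14 were higher in SyS-like cells, 6 were lower and 11 were not called (edgeR quasi-likelihood test with tumour as a block, Benjamini-Hochberg adjusted p under 0.05). Over all 18105 genes tested, 30.4% were called, 17.1% higher and 13.3% lower. The median log2 fold change was 1.62 over the 31 genes and 0.17 over all genes. Of all calls, 56.1% were higher, and without TMM scaling 71.4% were, when the median over all genes moved to 0.43. The tumour differences were smaller in the fit with doublets kept, for which the cells were also clustered and named again. The part of the doublets alone was not tested. With doublets kept, the 14 genes stayed higher in SyS-like cells but by 0.79 (Cdh24) to 2.27 (Cdh7) on the log2 scale, Pcdh11x going from 4.73 to 2.00, Cdh6 from 3.67 to 1.97, Pcdh8 from 3.55 to 1.95 and Cdh4 from 2.95 to 1.67, and the calls on Cdh3 and Cdh12 were lost. The low-count filter kept some genes only because SyS-like sums were large, so the counts describe the genes tested and not the whole family.

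Among type I cadherins, R-cadherin was the clearest tumour gene. Cdh4 (chr2:179442431-179899373 on GRCm38) stood at 331, 404, 280, 212 and 282 CPM in SyS-like cells and at 47.8, 70.8, 24.7, 21.8 and 17.9 CPM in stroma. SyS-like values lay above all stromal values, by 2.95 ± 0.22 (SE) on the log2 scale (edgeR adjusted p = 2.93e-05). Cdh3 rose to 19.6, 17.7, 6.25, 22.1 and 16.1 CPM from 0, 1.48, 1.09, 6.22 and 10.7 CPM in stroma (2.00 ± 0.60, adjusted p = 0.0351). The Cdh3 ranges overlapped, since MP tumour cells lay under PD+MP stroma, and the call was lost in 8 alternatives.

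N-cadherin did not separate tumour from stroma. Cdh2 was at 169, 112, 177, 131 and 295 CPM in SyS-like cells and at 144, 145, 125, 108 and 57.3 CPM in stroma, and the log2 difference was 0.32 ± 0.34 (edgeR adjusted p = 0.515). PD+MP held both the highest tumour value and the lowest stromal value. Endothelial-like cells had 3.62 to 18.7 CPM of Cdh2 and SyS-like cells were 4.05 ± 0.31 above them on the log2 scale (adjusted p = 2.47e-06).

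Type II cadherins gave both strong and partial tumour marks. Cdh6, a cadherin of kidney and neural crest, was at 260, 245, 63.4, 103 and 305 CPM in SyS-like cells and at 8.61, 7.38, 2.18, 27.0 and 26.5 CPM in stroma. Its log2 difference was 3.67 ± 0.47 (edgeR adjusted p = 0.000502), and every tumour value exceeded every stromal value. Cdh22, which lies on chr2:165111507-165234853, was at 40.6, 42.1, 18.9, 18.6 and 11.6 CPM in SyS-like cells and at 1.43 to 4.43 CPM in stroma (3.26 ± 0.28, adjusted p = 6.14e-05). Stromal Cdh22, a brain-expressed cadherin, was at the limit of counting, since 3 UMIs in a stromal sum correspond to 1.09 to 4.43 CPM.

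Cdh11, the osteoblast and synovial fibroblast cadherin, was shared with stroma. It was at 219, 499, 69.7, 430 and 24.2 CPM in SyS-like cells and at 79.1, 117, 39.6, 175 and 381 CPM in stroma (log2 difference 0.44 ± 0.79, edgeR adjusted p = 0.719). The tumour side was higher in 4 tumours and lower in PD+MP, and without PD+MP the difference was 1.18 (adjusted p = 0.00137). With pericyte-like cells as the only stroma it was 0.79 (adjusted p = 0.21). Against endothelial-like cells, Cdh11 was 4.72 ± 0.23 higher (adjusted p = 1.06e-07).

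Some low type II cadherins, Cdh8, Cdh20 and Cdh7 among them, were higher in tumour cells than in stroma. Others were not, since Cdh10 (1.62 ± 0.96, edgeR adjusted p = 0.236) and Cdh18 (0.13 ± 1.01, adjusted p = 0.939) were not called. Cdh9 was not tested and is given with the low genes. Cdh8 was at 7.14, 3.50, 0.175, 9.72 and 25.2 CPM in SyS-like cells and had 1 or more UMI in the stroma of MP+BP and PD+MP only, at 1.04 and 2.15 CPM. Its log2 difference was 3.67 ± 0.58 (edgeR adjusted p = 0.00165). In endothelial-like cells Cdh8 had 0 UMIs in all tumours, so that pooled SyS-like cells were at least 44.9-fold higher against a floor of 3 UMIs over the class. That bound is for pooled sums and does not describe single tumours. Within tumours, 3 endothelial-like UMIs stand for 0.667, 0.995, 0.672, 1.09 and 6.26 CPM, and the SyS-like value of MP lay under its floor. Pooled Cdh20 had 2168 UMIs in SyS-like cells and 2 in stroma, a ratio of 20.5 with a counting interval of 5.66 to 169, and Cdh7 had 2417 and 3, a ratio of 15.2 with an interval of 5.2 to 73.8. Of these UMIs in SyS-like cells, 1331 for Cdh20 and 1094 for Cdh7 came from PD+MP. Without PD+MP the log2 differences from stroma were 3.62 for Cdh20, 3.15 for Cdh7 and 4.17 for Cdh8, and all 3 were still called. All stromal sums together held 2, 3 and 4 UMIs of Cdh20, Cdh7 and Cdh8, so these genes passed the count filter through SyS-like sums. In stroma 3 UMIs stand for 1.09 to 4.43 CPM, and outside PD+MP SyS-like Cdh20 was at 2.03 to 3.66 CPM. The kept calls thus rest on stromal counts near the floor and are no further support. Intervals from counts cover counting error only.

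Several nonclustered protocadherins were higher in tumour cells. Pcdh11x, an X-linked protocadherin of the brain (chrX:120290259-120910619), was at 432, 517, 221, 255 and 126 CPM in SyS-like cells and at 4.70, 28.0, 8.73, 12.4 and 2.15 CPM in stroma. It was higher by 4.73 ± 0.35 on the log2 scale (edgeR adjusted p = 2.63e-05), with no overlap. Pcdh8, known as paraxial protocadherin in the somites, was at 88.5, 70.8, 214, 91.4 and 94.9 CPM against 6.26, 1.48, 11.3, 8.30 and 11.5 CPM (3.55 ± 0.29, adjusted p = 3.97e-05). MP stood above the other 4 tumours for Pcdh8.

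Pcdh10 was at 64.4, 32.5, 87.7, 81.7 and 16.9 CPM in SyS-like cells and at 1.57 to 6.44 CPM in stroma (3.37 ± 0.48, edgeR adjusted p = 0.000944). Its neighbour on chromosome 3, Pcdh18, had the opposite pattern and is described with the stroma. Pcdh17 was at 214, 95.7, 196, 309 and 29.2 CPM in SyS-like cells and at 5.48, 10.3, 8.0, 66.4 and 8.59 CPM in stroma (3.12 ± 0.50, adjusted p = 0.00178), and PD+MP tumour cells lay under MP+BP stroma. Pcdh19, X-linked and mutated in a human epilepsy, was at 268, 224, 259, 238 and 172 CPM against 153, 143, 140, 175 and 129 CPM, and its 0.39 ± 0.15 missed the threshold (adjusted p = 0.0794) but passed it without PD+MP, when the difference was 0.47. Pcdh11x and Pcdh19 are X-linked and were lowest in PD+MP, the library with almost no Xist, and the part of that difference in the result was not tested.

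Cdh23 and Cdh24 were also called, and Cdh12 is described with the low genes. Cdh23, a tip-link protein of inner ear hair cells, was at 46.7, 49.3, 32.3, 30.3 and 12.0 CPM in SyS-like cells and at 5.48 to 7.26 CPM in stroma (2.06 ± 0.33, edgeR adjusted p = 0.00164). Macrophage-like cells had 18.7 to 26.3 CPM of Cdh23, so this gene was not limited to tumour cells. Cdh24 was at 8.84 to 15.5 CPM against 1.48 to 7.26 CPM (1.13 ± 0.32, adjusted p = 0.0271, lost in 4 alternatives). Cdh23 overlaps Vsir on the opposite strand, and whether the counting used strand is not given in the sources used here.

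**Figure D2:**
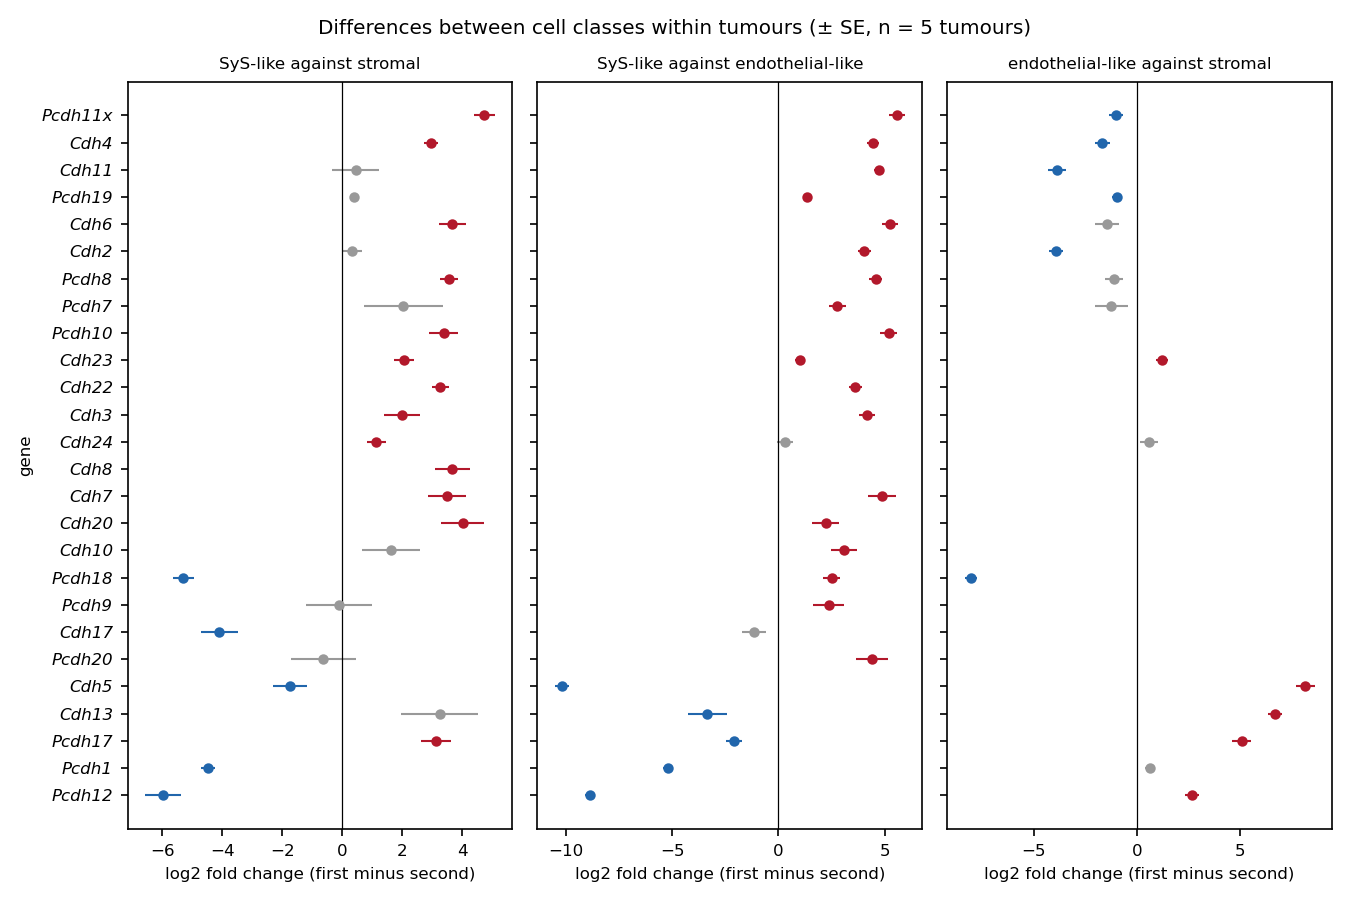
Log2 fold changes (horizontal axis, ± SE, n = 5 tumours) of the 26 genes (vertical axis) in 3 comparisons of cell classes, with genes called higher in the first class in red, lower in blue and not called in grey. Genes without a point were not tested, Pcdh11x is the highest called point in the SyS-like against stromal panel and Cdh5 the lowest in the SyS-like against endothelial-like panel.

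The endothelium had its own cadherin set. In SyS-like against endothelial-like cells, 29 of the 34 genes were tested, 19 were higher in SyS-like cells and 5 were lower. Over all 18349 genes tested, 52.8% were called, 30.4% higher and 22.4% lower. In endothelial-like against stromal cells, 16 genes were tested, 5 were higher in endothelium and 6 were lower, where 40.9% of 11139 genes were called, 20.2% higher and 20.8% lower. The median log2 fold change of the members tested was 2.51 in the first comparison, against 0.17 over all genes, and -0.99 in the second, against -0.01. Without TMM scaling, the share of higher calls in the first moved from 57.5% to 67.7%.

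Cdh5, the defining endothelial cadherin, was at 2006, 1832, 1751, 1823 and 1674 CPM in endothelial-like cells. It was at 2.05, 2.33, 3.04, 1.65 and 0.651 CPM in SyS-like cells and at 3.13, 11.8, 7.64, 10.4 and 0 CPM in stroma. The SyS-like side was lower by 10.2 ± 0.32 on the log2 scale (edgeR adjusted p = 6.19e-09). At 2000 UMIs per cell, 91.4% to 93.7% of endothelial-like cells and 0.153% to 0.799% of SyS-like cells had a Cdh5 UMI, and unthinned the shares were 92.3% to 96.3% and 0.733% to 4.72%. Stroma was also above SyS-like cells (log2 -1.74 ± 0.56, adjusted p = 0.0446), but that call was lost in 8 alternatives, and macrophage-like cells, which should lack the gene, had 3.12 to 10.3 CPM and, at 2000 UMIs, a share of 0.546% to 1.73%. The stromal levels of BP 2 and MP+BP lay above the macrophage-like range but rested on few counts. All stromal sums together held 43 Cdh5 UMIs, and 3 UMIs stood for 4.43 CPM in BP 2 stroma and 3.11 CPM in MP+BP stroma.

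Cdh13, the membrane-anchored T-cadherin without a cytoplasmic tail, marked endothelium and also 4 of the 5 tumours. Endothelial-like cells had 1180, 1075, 1102, 1531 and 1507 CPM. SyS-like cells had 211, 250, 283, 206 and 1.05 CPM, and stroma had 3.13, 7.38, 9.46, 29.0 and 14.3 CPM. Endothelium was above stroma by 6.71 ± 0.33 (edgeR adjusted p = 6.11e-07) and SyS-like cells were below endothelium by -3.35 ± 0.93 (adjusted p = 0.0119). The SyS-like difference from stroma was 3.24 ± 1.29 (adjusted p = 0.0889) and 4.22 without PD+MP (adjusted p = 1.29e-05). With pericyte-like cells as the only stroma and all 5 tumours it was 4.60 (adjusted p = 5.60e-08).

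Pcdh17 followed Cdh13 in order of classes. Endothelial-like cells had 480, 541, 455, 561 and 495 CPM, above all SyS-like values, and were higher than stroma by 5.10 ± 0.46 (edgeR adjusted p = 2.49e-05). SyS-like cells were below endothelium by -2.11 ± 0.38 (adjusted p = 0.000961). Pcdh12, a protocadherin of endothelial junctions, was at 70.0, 74.9, 66, 72.5 and 58.4 CPM in endothelium, 0.716 to 14.9 CPM in stroma and 0.125 to 0.229 CPM in SyS-like cells. It was 2.67 ± 0.33 above stroma (adjusted p = 0.000174), and SyS-like cells were -8.87 ± 0.22 from endothelium (adjusted p = 2.41e-09).

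Pcdh1, which lies next to Pcdh12 at a gap of 55036 bases, was shared by endothelium and stroma. It was at 76.0, 61.3, 77.5, 81.1 and 50.1 CPM in endothelium and at 56.4, 45.8, 64.7, 44.6 and 10.0 CPM in stroma (0.63 ± 0.24, edgeR adjusted p = 0.0593). SyS-like cells had 0.678 to 3.03 CPM and were -4.47 ± 0.22 from stroma (adjusted p = 2.99e-06). Every SyS-like value of both genes lay under every endothelial-like value.

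Stroma was marked by Pcdh18, a delta protocadherin. It was at 193, 210, 195, 146 and 55.9 CPM in stroma, at 3.60 to 5.15 CPM in SyS-like cells and at 0.332 to 2.09 CPM in endothelium. SyS-like cells were -5.29 ± 0.36 from stroma (edgeR adjusted p = 1.84e-05), and endothelium was -8.06 ± 0.29 from stroma (adjusted p = 1.39e-07). No SyS-like or endothelial-like value reached a stromal value. Cdh17, an intestinal cadherin, was at 9.39, 2.95, 4.73, 3.11 and 2.86 CPM in stroma against at most 1.01 CPM in SyS-like cells (-4.09 ± 0.63, adjusted p = 0.00144). Cdh16 stayed under 5 CPM and was at 0.716 to 3.13 CPM in stroma (-5.05 ± 0.53, adjusted p = 0.000172). Both rested on few counts, since all stromal sums together held 34 UMIs of Cdh17 and 14 of Cdh16. There 3 UMIs stand for 1.09 to 4.43 CPM.

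The stromal class mixed types with different cadherins, and its make-up moved with the tumour. Pericyte-like cells numbered 253, 176, 533, 234 and 38 and fibroblast-like cells 2, 0, 3, 39 and 128, so PD+MP stroma was mostly fibroblast-like. Dcn, a fibroblast marker, was at 3543 CPM in PD+MP stroma and at 1.48 to 536 CPM in the other 4, and Rgs5, a pericyte marker, at 2082 CPM and at 10486 to 17109 CPM. Over all tumours, Pcdh18 was at 188 CPM in pericyte-like and 47.4 CPM in fibroblast-like cells. Pcdh1 was at 58.4 and 2.26 CPM, and Pcdh12 at 12.9 and 0.752 CPM.

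Fibroblast-like cells were higher for Pcdh7, at 379 CPM against 6.80 CPM in pericyte-like cells, for Cdh11, at 444 against 69.7 CPM, and for Pcdh9, at 51.9 against 0.523 CPM. Of the 172 fibroblast-like cells 128 came from PD+MP and 39 from MP+BP, so no test was made. In MP+BP, Pcdh7 was at 387 CPM in fibroblast-like and 12.5 CPM in pericyte-like cells, and in PD+MP at 385 and 0 CPM. Cdh11 was at 498 and 110 CPM in MP+BP and at 438 and 125 CPM in PD+MP, and Pcdh9 at 30.8 and 2.49 CPM and at 56.1 and 0 CPM. The counting intervals of the types did not overlap in either tumour for these 3 genes. For Cdh6 they were apart in MP+BP, at 129 and 6.24 CPM, and overlapped in PD+MP, at 27.2 and 23.5 CPM. Pcdh7 was at 0, 1.48, 10.9, 75.7 and 314 CPM in stroma and at 67.6, 51.2, 118, 256 and 16.7 CPM in SyS-like cells. With pericyte-like cells as the only stroma, the SyS-like difference was 4.08 (edgeR adjusted p = 1.70e-06), against 2.03 ± 1.31 with all stroma (adjusted p = 0.274).

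Pcdh9 and Pcdh20, both delta protocadherins on chromosome 14, were also seen mostly in fibroblast-like cells of the stroma. Pcdh9 was at 0, 0, 0.364, 7.26 and 45.8 CPM in stroma and at 9.58, 3.77, 0.269, 9.61 and 5.36 CPM in SyS-like cells, and the log2 difference was -0.12 ± 1.10 (edgeR adjusted p = 0.953). Pcdh20 was at 0, 0, 0, 4.15 and 12.9 CPM in stroma, with a difference of -0.64 ± 1.08 (adjusted p = 0.699). With pericyte-like cells as the only stroma both differences turned positive, to 2.70 for Pcdh9 and 2.81 for Pcdh20.

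Cdh2, Cdh11, Cdh4, Pcdh19 and Pcdh11x were, with Pcdh18, the genes called lower in endothelium than in stroma. Endothelial-like cells were below stroma by -3.94 ± 0.34 for Cdh2 (edgeR adjusted p = 2.07e-05) and by -3.87 ± 0.45 for Cdh11 (adjusted p = 0.000137), both in 5 of 5 tumours. Cdh4 differed by -1.67 ± 0.35 (adjusted p = 0.00473) and Pcdh19 by -0.97 ± 0.22 (adjusted p = 0.00623). The call on Pcdh11x (-1.01 ± 0.34, adjusted p = 0.0401) was lost in 9 alternatives.

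**Figure D3:**
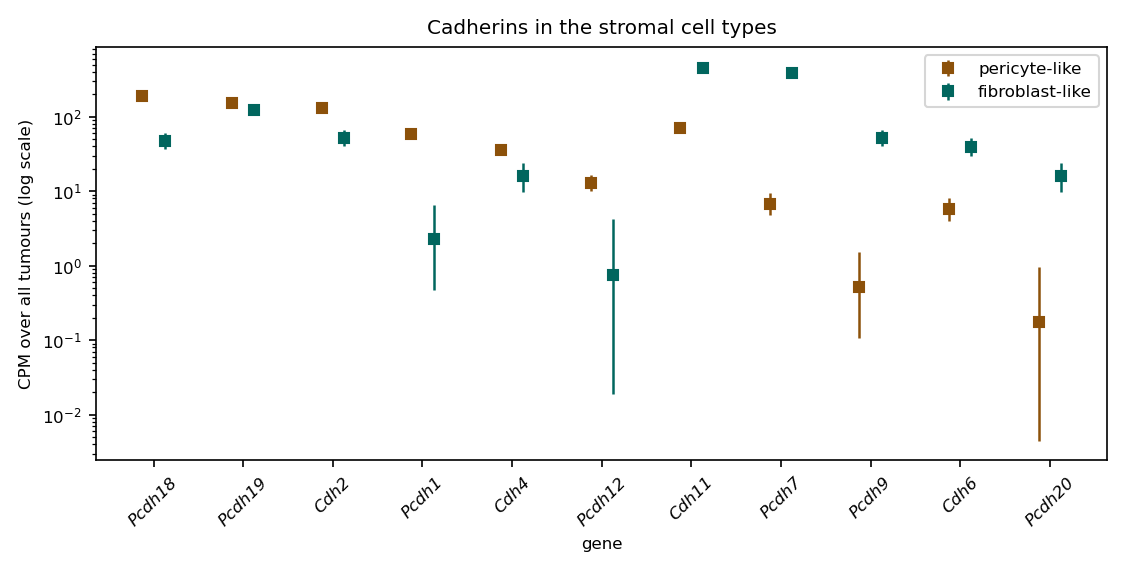
CPM pooled over tumours on a log axis (squares, with 95% counting intervals) for 11 genes in pericyte-like and fibroblast-like cells. The genes were picked after their values were seen, and Pcdh18, Pcdh1 and Pcdh12 are higher in pericyte-like cells while Cdh11, Pcdh7, Pcdh9, Cdh6 and Pcdh20 are higher in fibroblast-like cells.

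Macrophage-like cells held few of these transcripts. Cdh23 at 18.7 to 26.3 CPM was the only gene above 16 CPM in any macrophage-like sum. Of the tumour genes, these cells had Cdh4 at 4.62 to 9.87 CPM, Cdh11 at 0.780 to 15.5 CPM and Pcdh11x at 3.08 to 7.67 CPM. Stromal Cdh4 (17.9 to 70.8 CPM) lay above its macrophage-like range, and stromal Pcdh11x (2.15 to 28.0 CPM) overlapped its own. Endothelial-like cells had a mean of 14.1 CPM of Cdh4. The median was 2832 to 7638 UMIs per stromal cell and 4333 to 6756 per macrophage-like cell. The part of stray transcripts in these levels was not tested.

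The tumour labels were compared in SyS-like cells, with the 3 tumours that have a biphasic part against the 2 without. No gene of 20726 tested was called by edgeR (0%), 1994 had an unadjusted p under 0.05, and DESeq2 called 554. Of the 34 genes, 31 were tested and 0 were called by edgeR, 7 had an unadjusted p under 0.05, and DESeq2 called 2. An exact permutation test of 3 against 2 cannot go below 0.1. For 6 of the 31 genes the values of the label groups did not overlap, and the same held for 27.2% of all genes tested, so non-overlap was no feature of the cadherins.

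Those 6 genes were Cdh11, Cdh10, Cdh3 and Pcdh11x, higher with the biphasic label, and Cdh2 and Pcdh8, lower with it. Cdh11 was at 219, 499 and 430 CPM with the label and at 69.7 and 24.2 CPM without (log2 difference 2.99 ± 0.62, edgeR adjusted p = 0.452, DESeq2 adjusted p = 8.42e-05). Cdh10 was at 5.11, 5.93 and 4.71 CPM and at 0.457 and 1.38 CPM (2.45 ± 0.58, edgeR adjusted p = 0.465, DESeq2 adjusted p = 0.00149). Cdh2 ran the other way, at 169, 112 and 131 CPM against 177 and 295 CPM (-0.85 ± 0.29, adjusted p = 0.483).

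Some genes stood out in a single tumour. The highest tumour was at least 5 times the median tumour for Cdh20 and Pcdh20. Cdh20 was at 3.66, 3.14, 2.03, 2.27 and 18.4 CPM, and Pcdh20 at 0.826, 0.582, 0.484, 6.36 and 1.07 CPM. Cdh7 was also highest in PD+MP, at 15.1 CPM against 2.61 to 5.96 CPM, and Cdh8 at 25.2 CPM. Cdh2, Cdh6 and Cdh24 also had their maximum in PD+MP.

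PD+MP also had the lowest level of several genes, which were picked here after their values were seen. Cdh13 was at 1.05 CPM, and the median tumour was 201 times that level. Pcdh17 was at 29.2 CPM, 6.72-fold under the median tumour, Cdh11 was 9.03-fold under it, Pcdh7 4.05-fold and Pcdh10 3.8-fold. PD+MP was not the lowest tumour for Cdh4, Cdh6 and Pcdh8, at 282, 305 and 94.9 CPM. With 1 tumour of this label, the label and the tumour cannot be told apart.

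**Figure D4:**
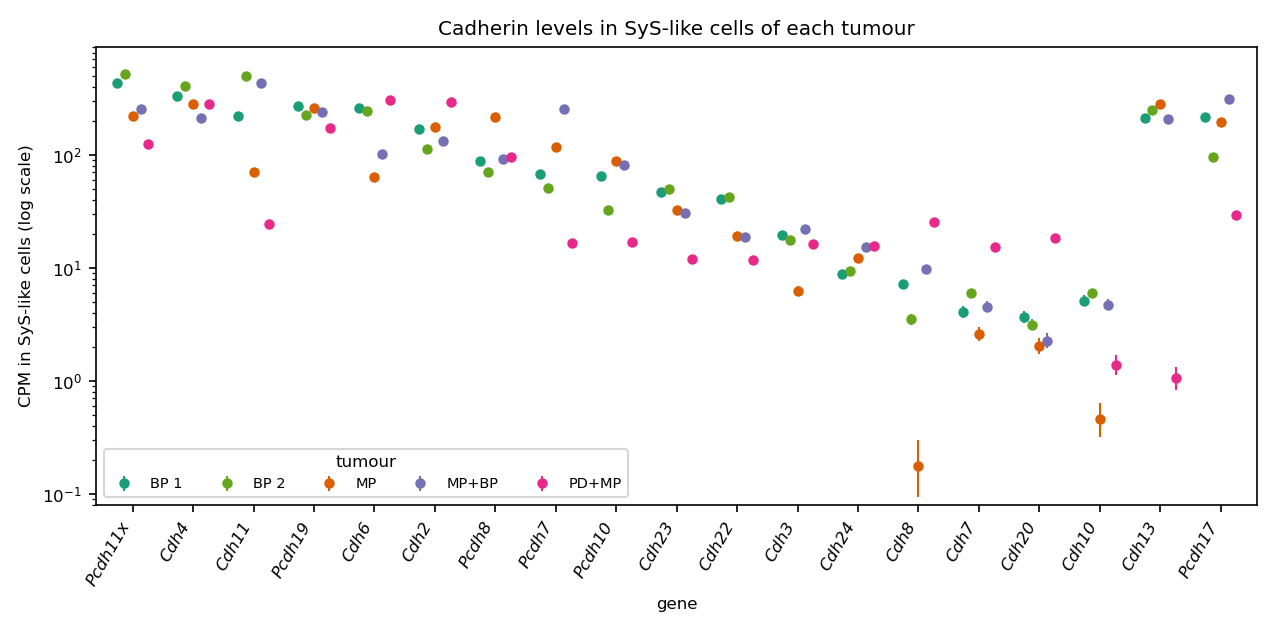
CPM in SyS-like cells on a log axis for 19 genes in each of the 5 tumours (points, with 95% counting intervals that are often smaller than the point). PD+MP is highest for Cdh8, Cdh7, Cdh20, Cdh2 and Cdh6 and lowest for Cdh13 (1.05 CPM), Cdh11 and Pcdh17.

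Within the 13 SyS-like clusters the genes varied with the tumour that gave the cells. The 3 PD+MP clusters had 0.57 to 2.70 CPM of Cdh13 and 16.7 to 31.5 CPM of Cdh20. Cluster 17, with 766 cells of which 75.2% came from BP 1, had the highest Cdh1 of the 13, at 41.0 CPM, beside 498 CPM of Pcdh17, 459 CPM of Pcdh19 and 77.7 CPM of Cdh11. Cluster 6, led by Mgp, Sst and Col1a1 and drawn from all 5 tumours, had 117 CPM of Pcdh10, 15.7 CPM of Cdh10 and 390 CPM of Pcdh17, with 40.0 CPM of Cdh6 and 62.3 CPM of Pcdh19. Clusters share tumours and were not tested.

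**Figure D5:**
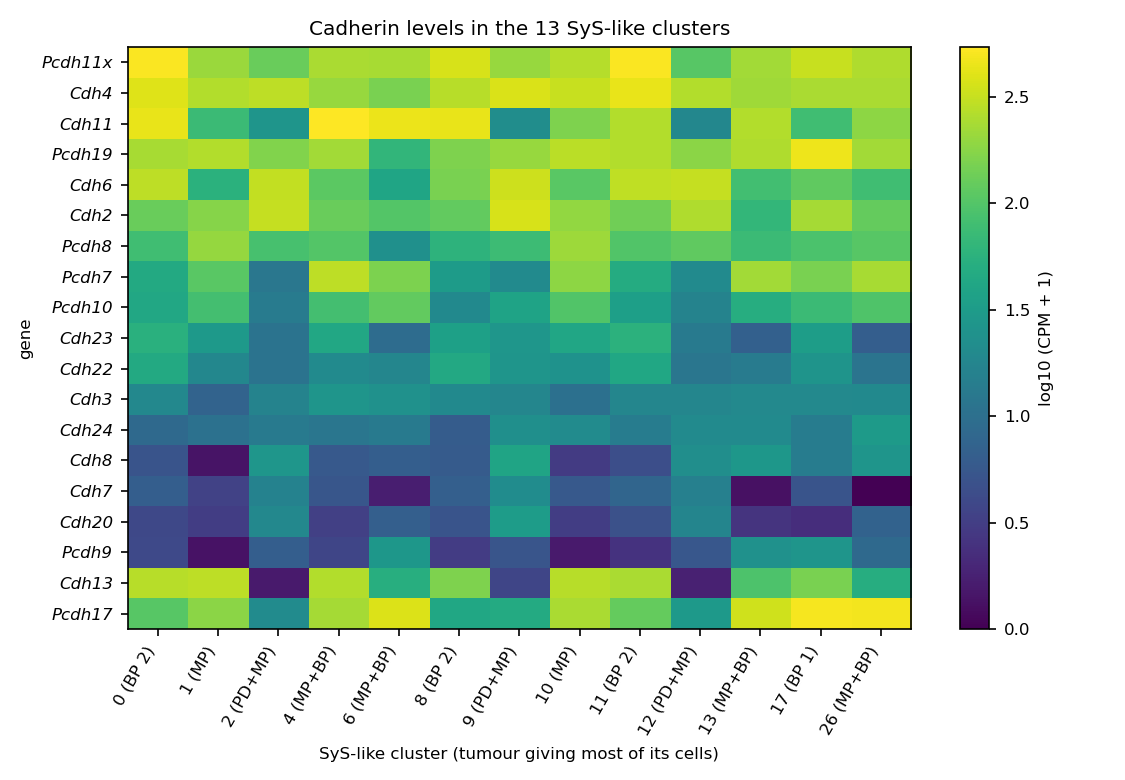
Cadherin levels (vertical axis, genes reaching 20 CPM in a cluster) in the 13 SyS-like clusters (horizontal axis, with the tumour giving most cells), coloured by log10 of CPM plus 1. Cdh13 is near 0 in the 3 PD+MP clusters, and Pcdh17 and Pcdh19 reach 498 and 459 CPM in cluster 17.

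Cells with E-cadherin were then compared with cells without it inside each tumour. Cdh1 was seen in 208, 168, 40, 263 and 24 SyS-like cells, 5.68%, 2.45%, 0.911%, 4.63% and 0.374% of the class. These cells were deeper, with a median of 26517, 15379, 33748, 17419 and 11580 UMIs against 8369 to 11984 in the rest. A fit on cells of 5000 to 20000 UMIs, given with the alternatives, left out MP and PD+MP, with 11 and 14 positive cells. It changed both depth and tumours, so the part of depth alone was not tested. In the main comparison, 1 of 29 genes tested was higher and 1 was lower in Cdh1-positive cells. There 7.72% of 18245 genes were called, 33.1% of them higher and 71.1% without TMM scaling. The call was lost in 8 alternatives for Cdh6 and in 3 for Cdh18, whose adjusted p was not given by DESeq2.

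Cdh6 was at 251, 238, 60, 72.5 and 198 CPM in Cdh1-positive cells and at 261, 245, 63.5, 106 and 306 CPM in Cdh1-negative cells. It was lower in 5 of 5 tumours, by -0.35 ± 0.10 on the log2 scale (edgeR adjusted p = 0.0321), and DESeq2 gave an adjusted p of 0.0535. The counting intervals of positive and negative cells overlapped in BP 1, BP 2 and MP. They were apart in MP+BP and in PD+MP, where positive cells held 61 UMIs of Cdh6. Cluster 17 held 652 of the Cdh1 UMIs of SyS-like cells and had Cdh6 at 116 CPM, against 291 CPM in cluster 0, so Cdh1-positive and Cdh1-negative cells were spread differently over clusters, and the part of that in the result was not tested. Cdh18 rested on 39, 2, 0, 20 and 0 UMIs in positive cells, and its 2.17 ± 0.47 (adjusted p = 0.00896) fell to 1.35 without BP 1 (adjusted p = 0.212). Cdh2 differed by -0.10 ± 0.06 (adjusted p = 0.411) and Cdh3 by 0.29 ± 0.12 (adjusted p = 0.16), neither of which was called.

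Related adhesion genes were counted from 1 list, chosen like the members. Of 15 catenins and junction partners, 3 were higher and 2 lower in SyS-like than in stromal cells, where 30.4% of all genes tested were called. Of 18 atypical cadherins 13 were tested, with 4 higher and 2 lower, and of 57 clustered protocadherins 38 were tested, with 1 higher and 3 lower. None of the 9 desmosomal cadherins passed the count filter in that comparison. The largest called rises were in Fat3 (4.62 ± 0.32), Clstn2 (4.31 ± 0.31), Pcdhb6, Cdh1 and Ctnnd2, and the largest falls in Ctnna3 (-3.54 ± 0.82), Pcdhga5, Pcdhb16, Pcdhgb5 and Clstn1. Ctnnd2, delta-catenin, was at 135, 148, 1.25, 30.7 and 287 CPM in SyS-like cells, lowest in MP and highest in PD+MP. Against endothelial-like cells, 3 of the 41 clustered protocadherins tested were higher in SyS-like cells and 21 were lower, where 52.8% of all genes were called. In endothelial-like against stromal cells, 7 of 12 junction partners tested were higher and 4 lower, where 40.9% of all genes were called.

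The 8 genes that stayed under 5 CPM in every tumour of the 4 classes were Cdh9, Cdh12, Cdh15, Cdh16, Cdh18, Cdh19, Cdh26 and Pcdh15. Cdh12 had 406 UMIs in SyS-like cells and 1 in stroma, a ratio of 7.67 with a counting interval of 1.37 to 304, and its call in SyS-like against stromal cells (3.18 ± 0.95, edgeR adjusted p = 0.0336) was lost in 9 alternatives. Cdh19, a Schwann cell cadherin, had 11 UMIs in all SyS-like cells and 0 in stroma. Cdh9 had 20 and 6, so pooled stroma was higher, by a ratio of 15.9 with a counting interval of 5.22 to 41.0. Stroma was the highest class for Cdh9 in 1 of 5 tumours.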

How the data were processed

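Libraries were made with a 10x 3′ v3.1 kit, and the authors deposited filtered matrices of UMI counts per cell and gene from Cell Ranger 7.2.0 on mm10. Strand handling is not given in the sources used here. The members and gene lists were chosen with earlier results of these data known. Cells with at least 750 genes and at most 25% mitochondrial UMIs were kept, the highest-scoring doublets (0.8% per 1000 cells, Scrublet in scanpy 1.11.5) were removed, and cells were clustered (3000 features, 30 components, 20 neighbours, Leiden resolution 1) with all cadherin-related genes left out. Clusters with 3 or more markers were named, each marker at 3 times or more the 25th percentile of clusters, 25% of the highest cluster and 5% of cells. Class sums of UMI counts in each tumour were compared by edgeR 4.0.16 (TMM, filterByExpr, tumour as a block, since both classes come from the same tumour), with DESeq2 1.42.0 as an alternative, and the script was tested on simulated data. Total UMIs per library were 89996321 to 118649103, and exact Poisson intervals at 95% cover counting error. Levels are CPM of these sums. Values are given for members called in at least 1 comparison that reached 5 CPM in a class of a tumour, and for members whose highest tumour was at least 5 times the median. Positions are from GENCODE M21. Alternatives changed scaling, filters, doublets, clustering, naming, block, depth and left out each tumour.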

Additional observations from a re-analysis of the deposited data

Results flagged for a closer look

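Dixon's test at 0.71 was run on 59 combinations of a member and a class. No share over all genes was taken, so the number flagged does not single out the cadherins. Values in 12 of the 59 combinations stood away from the other 4 tumours, and 7 of the 12 were in PD+MP. In SyS-like cells these were Cdh20 at 18.4 CPM, Cdh7 at 15.1 CPM and Cdh13 at 1.05 CPM in PD+MP, Pcdh8 at 214 CPM in MP and Pcdh20 at 6.36 CPM in MP+BP. In stroma they were Pcdh7 at 314 CPM and Pcdh9 at 45.8 CPM in PD+MP, Pcdh17 at 66.4 CPM in MP+BP, and Cdh17 at 9.39 CPM in BP 1. In endothelial-like cells they were Cdh24 at 0 and Cdh6 at 27.1 CPM in PD+MP, which had 76 such cells and a floor of 6.26 CPM for 3 UMIs, and Pcdh9 at 6.16 CPM in MP+BP. PD+MP stroma held 128 fibroblast-like and 38 pericyte-like cells, and the part of that make-up in the Pcdh7 and Pcdh9 values was not tested.

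Cells outside the comparisons gave 1 result. Cdh10 was at 33.8 CPM in pooled T/NK-like cells, with a counting interval of 22.5 to 48.9 CPM that lay above those of the 4 classes compared, and with 15, 5, 0, 1 and 7 UMIs in the 5 tumours. SyS-like cells were at 3.59 CPM.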

How the results depend on the processing

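A change of sign was counted as a reversal only where the main setting or the alternative called the gene. Uncalled genes that changed sign, such as Cdh11 from 0.44 to -0.02 against stroma, were therefore counted as kept. Values without an adjusted p were not counted as a lost or gained call. Of 471 values of members over the alternatives in SyS-like against stromal cells, 425 were kept, 30 lost the call, 14 gained it and 2 reversed. In SyS-like against endothelial-like cells these were 410, 5, 1 and 1 of 417, and in endothelial-like against stromal cells 238, 9, 14 and 0 of 261. The cause was not tested. With pericyte-like cells as the only stroma, SyS-like against stromal differences of Pcdh20 and Pcdh9 turned to 2.81 and 2.70, and with doublets kept Pcdh18 in SyS-like against endothelial-like cells turned to -1.50. With doublets kept the SyS-like against stromal differences were also smaller, at 2.00 for Pcdh11x, 1.97 for Cdh6 and 1.67 for Cdh4, with 19 members called. Thinning sums to equal totals left 3574 genes and 9 members called in SyS-like against stromal cells. For the biphasic label, DESeq2 called 554 genes and 2 members, and leaving out each tumour gave 0 to 583 genes and 0 to 2 members, the highest without MP, when Cdh13 and Cdh20 were called. For Cdh1-positive cells, leaving out each tumour gave 796 to 1594 genes and 1 to 2 members. There the fit with no replicate block called 1 gene and 0 members, cells of 5000 to 20000 UMIs 396 and 1, and the score of 5 epithelial genes 4511 and 9. The main settings called 1409 genes and 2 members. The fit on cells of 5000 to 20000 UMIs left out MP and PD+MP, so it differed in tumours as well as in depth. DESeq2 called 0 members and no filter on low counts 4. In the 3 class comparisons 20, 24 and 11 members were called, and with no replicate block 18, 22 and 11. That fit lost Cdh8, Cdh3 and Cdh12 against stroma, Cdh23 and Pcdh9 against endothelium, and Pcdh11x between endothelium and stroma. Without PD+MP the counts were 24, 24 and 13. Summing the BP tumours to 1 sample, chosen after seeing the data, gave 17, 24 and 11. Calls over all genes also moved. They were 5506, 9687 and 4560 with the main settings, and 3574 to 7025, 7036 to 10664 and 3187 to 5728 over the alternatives. Leaving out each tumour gave 3959 to 6687, 8174 to 10035 and 3187 to 5273. The part of that in the member counts was not tested. Depth limits low genes in stroma, where 3 UMIs stand for 1.09 to 4.43 CPM, and in the endothelial-like cells of PD+MP, where they stand for 6.26 CPM.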

Other observations

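The members lie in several gene groups on the chromosomes, and neighbours often differed in the class where they were high. On chromosome 3, Pcdh10 and Pcdh18 lie 4307673 bases apart, and their mean levels were 56.6 and 4.53 CPM in SyS-like cells and 4.04 and 160 CPM in stroma. On chromosome 8, Cdh11 and Cdh5 lie 1315983 bases apart and were at 248 and 1.94 CPM in SyS-like cells and at 9.31 and 1817 CPM in endothelial-like cells. Pcdh1 and Pcdh12 were the closest of these pairs at 55036 bases, and both were highest in endothelium, at 69.2 and 68.4 CPM. On chromosome 15, Cdh6 was at 195 CPM in SyS-like cells, and its nearest member, Cdh9, at 0.0498 CPM.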
